A study of Mus musculus with 71 samples.

Results

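The genes described here are 47 components of macroautophagy and mitophagy, chosen by gene symbol from 9 roles of the pathway and followed gene by gene in whole blood of mice. All 47 were found in the deposited table of 10508 expressed genes, so none had to be taken from the larger table of 55416 annotated genes. The study measured whole-blood RNA in the mouse model of systemic sclerosis (SSc) in which hypochlorous acid (HOCl) is injected into the skin, and asked how monoclonal antibodies (mAbs) to galectin-3 (Gal-3), a carbohydrate-binding protein, change it. Female Balb/c AnNRj mice, 6 weeks old at the start, received HOCl intradermally on 5 days per week for 6 weeks, while the CTRL mice received PBS, and blood was taken at the end. There were 11 CTRL mice, 12 mice given HOCl and no antibody (called HOCl below), and 12 mice each given HOCl with E07, D11, D06 or BPR21. E07 and D11 are human IgG1 anti-Gal-3 mAbs injected subcutaneously at 20 mg/kg, the day before the first HOCl injection and then every 5 days from day 5. The labels name the D06 and BPR21 treatments without a description or dose, and they write HOCL in the genotype field of the CTRL mice as well, so CTRL was taken from the sample titles. The model is a chemical one in a single inbred strain and a single sex, and blood is a mixture of cell types. The groups were kept in separate cages, so cage and group cannot be told apart.

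Autophagy encloses cytoplasm in a double membrane, the autophagosome, and delivers it to the lysosome. The ULK kinase complex starts the process, the class III phosphoinositide 3-kinase complex around Beclin 1 marks the membrane with a lipid, and ATG9, ATG2 and WIPI proteins let it grow. The conjugation enzymes then attach ATG8 proteins (the LC3 and GABARAP families) to the membrane, where cargo receptors such as p62 (Sqstm1) and optineurin dock. Mitophagy is the same process aimed at mitochondria, through PINK1 or through receptors such as NIX, the product of Bnip3l. In blood the pathway is best known from the maturing red cell: reticulocytes lose their mitochondria through NIX before they become erythrocytes.

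Each mouse had 11932855 to 15948972 counts over genes (median 13719277), and no pair of libraries held identical values. Levels below are the deposited variance-stabilised (vst) values, a log2-like scale on which a difference of 1 is a fold change of 2 for well-expressed genes. The vst table lacks HOCl mouse 8, which leaves 11 HOCl mice on this scale and 70 mice in all. A gene was called when limma's false discovery rate (FDR, over 10508 genes) was at most 0.05 and the fold change at least 1.3.

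Of the 47 members, 12 were called higher in HOCl than in CTRL mice, beside 4.96% of all genes called in either direction. In E07-treated against HOCl mice 15 were called lower, beside 7.89% of all genes, and these 15 included all 12. No member was called in the opposite direction in either comparison. None was called between D11, D06 or BPR21 and HOCl, where few of all genes were called either (0.0571%, 0.133% and 0.638%). The members that moved came from several roles: 4 of 5 ATG8 genes (Map1lc3b, Gabarap, Gabarapl1, Gabarapl2), 3 of 5 cargo receptors in HOCl and 4 of 5 with E07 (Sqstm1, Optn, Tax1bp1, and Nbr1 with E07), Pink1 and, with E07, Bnip3l among 4 mitophagy genes, Becn1 of the nucleation complex, Wipi1, the conjugation genes Atg4a and Atg12 and, with E07, Lamp2. None of the 5 ULK complex genes and none of 3 transcription factors was called in either comparison. Erythroid marker genes moved in the same directions in these comparisons, and with their mean level in the model 0 members were called in each, beside 1 and 0 of all genes tested. Scaled to the library total in place of vst, the calls were 8 higher and 11 lower in HOCl, beside 52.0% of all genes. With E07 they were 14 higher and 9 lower, beside 65.5%, around a shift of all genes that is given further on.

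**Figure D1:**
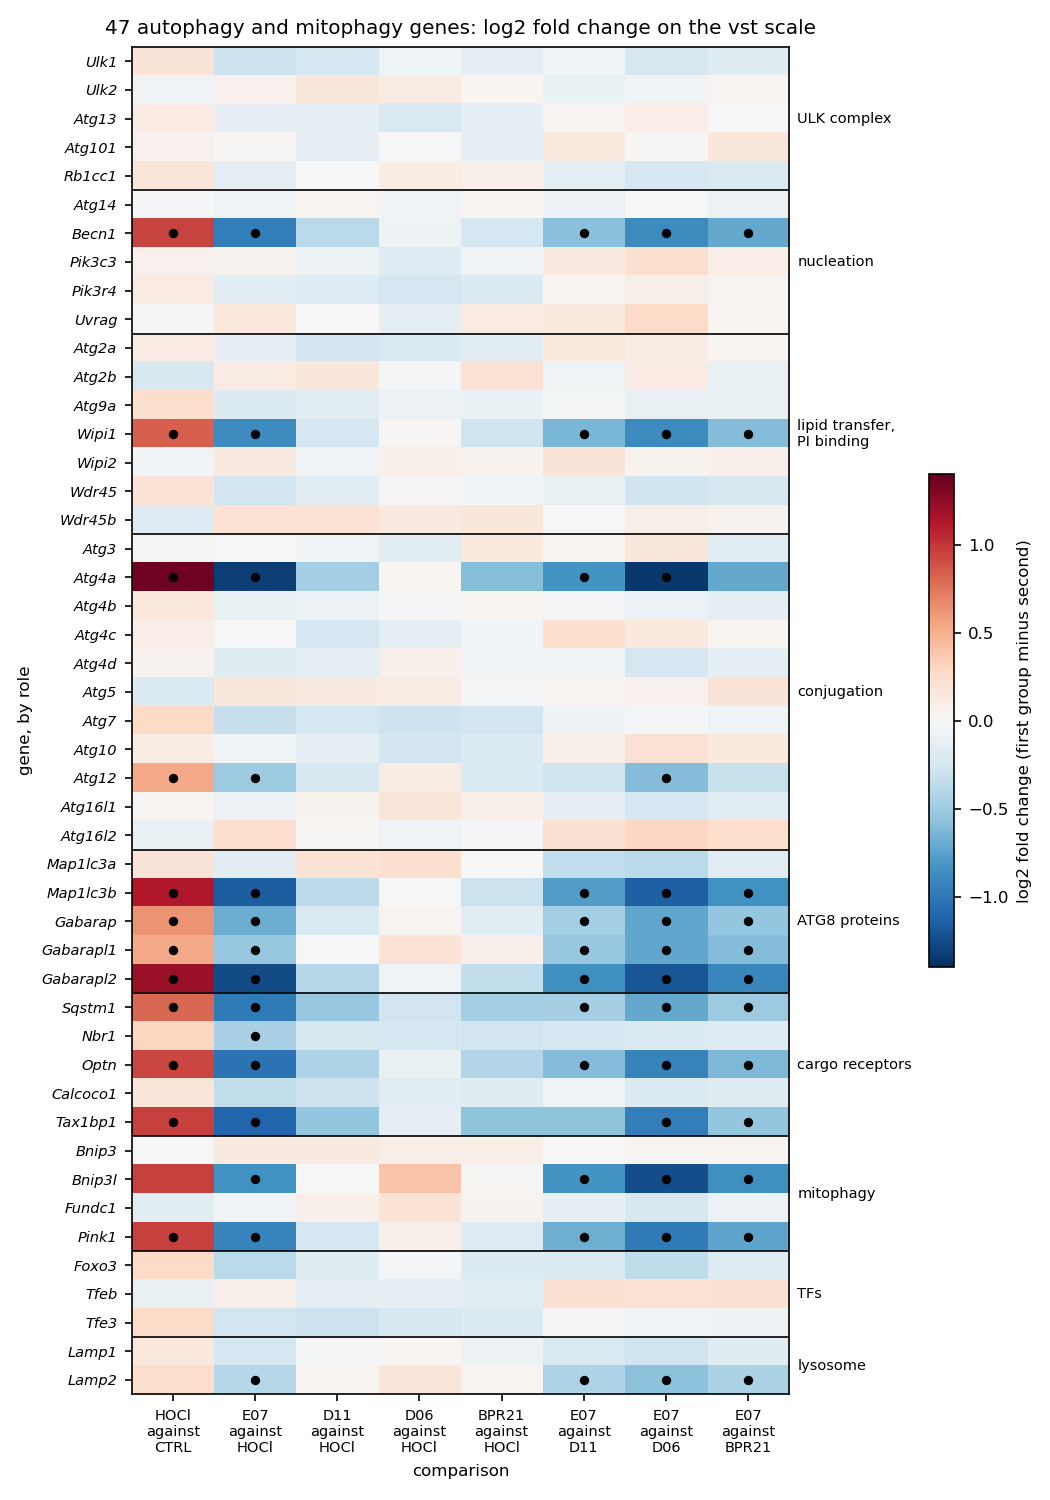
Log2 fold change on the vst scale of each of the 47 members (rows, by role) in 8 comparisons (columns); red is higher and blue lower in the group named first, and a black dot marks a call (FDR at most 0.05 and fold change at least 1.3). The 12 dots of the first column lie in the same rows as 12 of the 15 dots of the second, and the 3 columns for D11, D06 and BPR21 against HOCl hold none.

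Promoter sequence was looked at because the members that moved did so together. In the 300 bases around the annotated start (250 before it and 50 after, GRCm39, canonical transcript), both strands were searched for CACGTG, the E-box core bound by TFEB and its relatives, and for AGATAA, a form of the motif bound by GATA factors such as the erythroid factor GATA1. The E-box was in 5 of 47 members (10.6%) and in 10.1% of 10495 promoters of expressed genes, and the GATA motif was in 3 of 47 members (6.38%) and in 8.41% of all, while 10 of 31 erythroid marker genes (32.3%) held the GATA motif. The longer form TCACGTGA was in 0 of 47 members and 1.8% of all. Among the 12 members called in both comparisons, the only promoter with a match was that of Gabarap, with an E-box starting 42 bases before the start and GATA motifs at 5 bases before and at base 39. Lamp1, which encodes a major lysosomal membrane glycoprotein and was not called, held 4 E-boxes, and Bnip3l, the most abundant member, held neither motif. These 3 promoters are shown 5′ to 3′ on the strand of the gene, with matches in capitals (TTATCT is AGATAA read on the other strand). A match is a description of the letters and was not tested as a binding site.
Gabarap, chr11:69881638-69881937 (+): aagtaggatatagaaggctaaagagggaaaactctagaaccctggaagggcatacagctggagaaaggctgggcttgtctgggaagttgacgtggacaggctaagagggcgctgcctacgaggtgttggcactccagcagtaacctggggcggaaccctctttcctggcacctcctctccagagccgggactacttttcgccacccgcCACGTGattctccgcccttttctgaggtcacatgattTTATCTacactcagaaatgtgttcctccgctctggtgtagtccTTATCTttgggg
Lamp1, chr8:13208871-13209170 (+): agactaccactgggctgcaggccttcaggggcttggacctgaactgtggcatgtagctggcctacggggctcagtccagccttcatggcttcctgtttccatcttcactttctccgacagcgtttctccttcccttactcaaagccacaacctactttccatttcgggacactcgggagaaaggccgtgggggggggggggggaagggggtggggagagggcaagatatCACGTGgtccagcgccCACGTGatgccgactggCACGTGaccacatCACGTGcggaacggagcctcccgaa
Bnip3l, chr14:67246285-67246584 (-): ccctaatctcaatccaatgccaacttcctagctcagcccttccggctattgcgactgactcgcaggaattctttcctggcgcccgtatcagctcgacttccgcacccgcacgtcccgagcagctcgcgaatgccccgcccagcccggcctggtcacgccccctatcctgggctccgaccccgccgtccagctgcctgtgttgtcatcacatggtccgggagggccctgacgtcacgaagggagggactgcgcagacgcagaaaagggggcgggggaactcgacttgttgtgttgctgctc

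Per exon length, Bnip3l stood far above the rest, with a median of 2375 RPKM over all mice. RPKM here is reads per kilobase of all annotated exons of the gene, merged, scaled to the library's total count. It alone took a median of 1.307% of all counts in blood. Gabarapl2 (254 RPKM), Gabarap (215 RPKM) and Map1lc3b (211 RPKM) came next, followed by Becn1 (71.7 RPKM), Pink1 (59.8 RPKM) and Lamp1 (52.4 RPKM). Atg10, a conjugating enzyme, and Atg4c, a protease of the ATG8 system, were the lowest. The annotation holds a named pseudogene of Bnip3l and another of Atg4a, whose reads the counting could have shared, so these 2 levels are less certain.

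**Figure D2:**
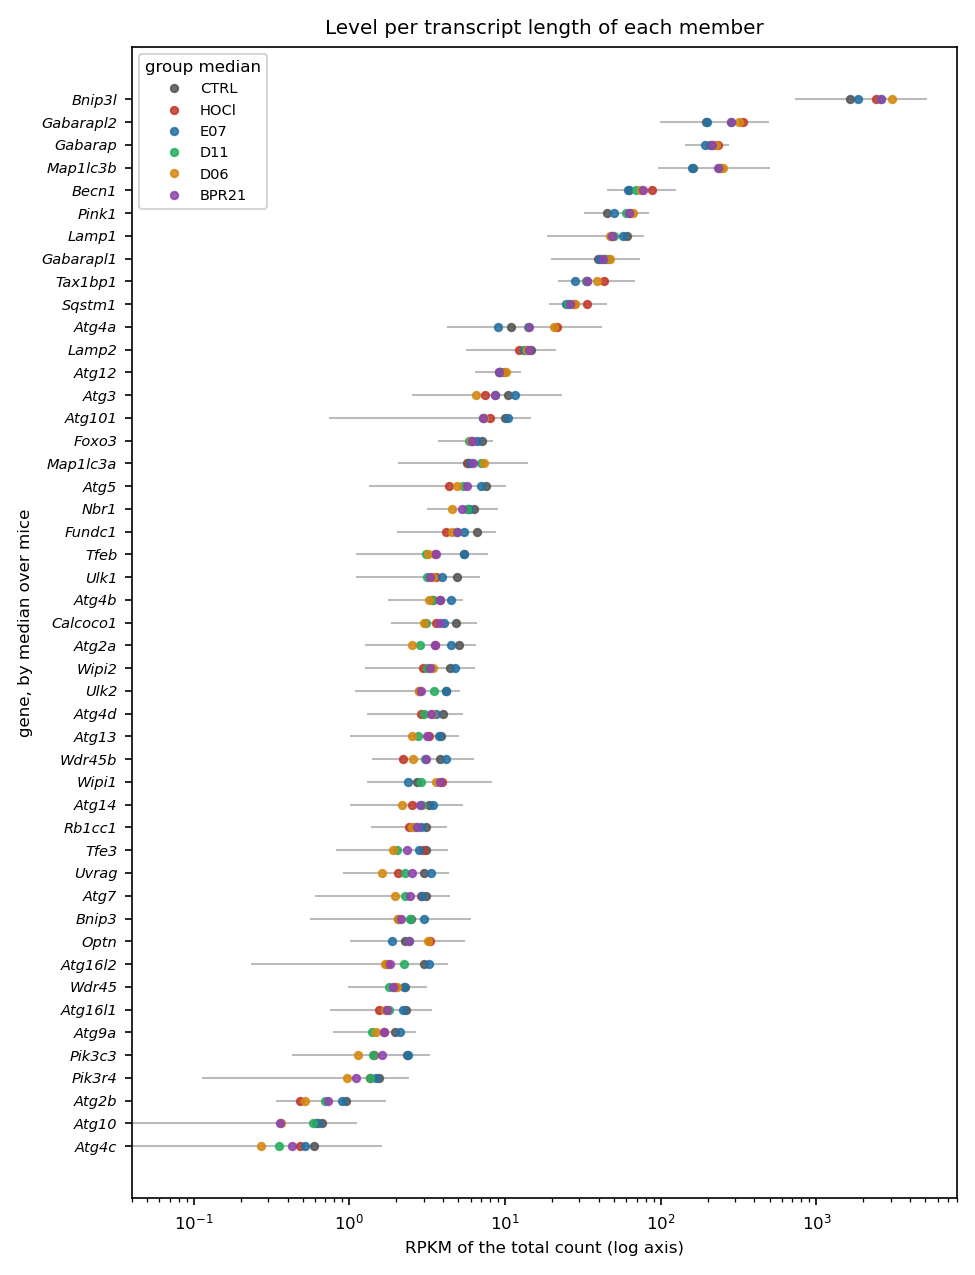
Level of each member in RPKM of the total count (log axis), per length of its merged annotated exons, which the title calls transcript length. Coloured points are the medians of the 6 groups and the grey line runs from the lowest to the highest mouse. Bnip3l lies at 2375 RPKM over all mice, and the ATG8 genes Gabarapl2, Gabarap and Map1lc3b follow between 211 and 254.

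The first comparison asked which members differ in diseased mice, HOCl against CTRL. Here 12 of 47 members (25.5%) were called, all higher, against 4.96% of all genes tested, on the vst scale. The median log2 fold change of the 47 was 0.17, against -0.02 over all genes. The second asked which members differ with E07, the antibody with the most called genes against HOCl. Here 15 of 47 (31.9%) were called, all lower, against 7.89% of all genes, with a median of -0.17 beside 0.02 over all genes. The members were chosen with earlier results of these data known, so these shares are no independent test of the members against all genes. Both comparisons use the same HOCl mice, so their opposite signs are not independent of each other. CTRL and E07 mice were not compared by a test.

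Among the ATG8 genes, Gabarapl2 (GATE-16, ENSMUSG00000031950, chr8:112667322-112682011, GRCm39) had the largest change. Its vst level ran from 11.88 to 15.02 (median 13.18) in CTRL, from 13.35 to 15.90 (median 14.51) in HOCl and from 12.68 to 13.95 (median 13.20) in E07 mice. All 11 HOCl mice lay above the CTRL median and all 12 E07 mice below the HOCl median, while the ranges overlapped. The log2 fold change was 1.21 ± 0.29 (SE, FDR = 0.0111) in HOCl against CTRL and -1.25 ± 0.21 (FDR = 0.000216) in E07 against HOCl. Map1lc3b (ENSMUSG00000031812, chr8:122317100-122325499), the LC3 form most used to follow autophagosomes, ran from 12.62 to 15.26 (median 13.65) in CTRL, 13.89 to 16.72 (median 14.93) in HOCl and 13.31 to 14.46 (median 13.72) in E07. It rose by 1.12 ± 0.27 (FDR = 0.0141) and with E07 fell by 1.15 ± 0.22 (FDR = 0.000704). Gabarap and Gabarapl1 moved less, by 0.63 and 0.53 in HOCl and by -0.69 and -0.53 with E07. Gabarap ran from 11.59 to 13.39 (mean 12.34) in CTRL, 12.19 to 14.02 (mean 12.97) in HOCl and 11.93 to 12.68 (mean 12.28) in E07 mice. Gabarapl1, first described as an estrogen-regulated relative of GABARAP, ran from 10.24 to 11.52 (median 10.68), 10.75 to 11.87 (median 11.28) and 10.43 to 11.13 (median 10.75) in the same order. Of these 3 groups the E07 mice spanned the narrowest range for both. Map1lc3a, the remaining ATG8 gene, had fold changes of 0.18 and -0.14 with FDR of 0.432 and 0.365. The HOCl call of Gabarap (FDR = 0.0447) was lost in 16 of 22 fits that left out 1 mouse, with FDR from 0.00507 to 0.0892.

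Of the receptors that tie cargo to ATG8 proteins, Sqstm1 (p62, ENSMUSG00000015837, chr11:50089572-50107684) ran from 10.99 to 11.58 (median 11.40) in CTRL, 11.29 to 13.38 (median 12.15) in HOCl and 10.83 to 11.61 (median 11.12) in E07 mice. CTRL and E07 mice held a narrow band, 10 of 11 HOCl mice lay above all of them, and HOCl mouse 1 lay inside the band at 11.29. The fold change was 0.80 ± 0.16 (FDR = 0.00434) in HOCl and -0.99 ± 0.15 (FDR = 0.000117) with E07, the smallest FDR among the members. Tax1bp1, a receptor for ubiquitinated cargo, ran from 11.16 to 12.95 (median 12.02) in CTRL, 12.10 to 14.26 (median 13.06) in HOCl and 11.47 to 12.69 (median 11.80) in E07. It rose by 0.95 ± 0.21 and with E07 fell by 1.11 ± 0.18. Optn, the receptor that also acts in PINK1-driven mitophagy, ran from 7.85 to 9.48 (median 8.64), 8.54 to 10.88 (median 9.50) and 7.84 to 9.13 (median 8.36) in the same order. It rose by 0.93 ± 0.20 and with E07 fell by 1.04 ± 0.18. Nbr1, a receptor for protein aggregates and peroxisomes, held 9.18 to 9.71 in CTRL, 9.42 to 10.36 in HOCl and 9.13 to 9.47 in E07 mice. It was called with E07 only, at -0.45 ± 0.08 (FDR = 0.000553), with 0.30 ± 0.09 (FDR = 0.0629) in HOCl. Whether its 2 effects differ in size was not tested. Calcoco1 was past the FDR with E07 (-0.34, FDR = 0.045) and under the fold threshold.

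Among the mitophagy genes, Bnip3l (ENSMUSG00000022051, chr14:67222678-67246356) ran from 15.06 to 19.00 (median 16.54) in CTRL, 16.46 to 18.69 (median 17.64) in HOCl and 16.04 to 17.40 (median 16.74) in E07 mice. A single CTRL mouse, number 12, held the 19.00 and lay above every HOCl mouse. This mouse was the highest CTRL mouse for 13 of the 15 members called with E07, and HOCl mouse 7 was the highest HOCl mouse for 13. Without CTRL mouse 12 the members called in HOCl against CTRL were 13, and without HOCl mouse 7 they were 10, with 15 in E07 against HOCl. Shares of all genes in these fits are not given here. Bnip3l was 0.96 ± 0.32 higher in HOCl with FDR = 0.0772 and so was not called, and without that mouse the difference was 1.19 with FDR = 0.00248. It also passed without HOCl mouse 1 (1.07, FDR = 0.0365). With E07 it fell by 0.84 ± 0.20 (FDR = 0.00523). Pink1 (ENSMUSG00000028756, chr4:138039346-138053618), the kinase that marks damaged mitochondria, ran from 10.27 to 12.42 (median 11.03) in CTRL, 10.87 to 13.18 (median 12.13) in HOCl and 10.64 to 11.70 (median 11.04) in E07. It rose by 0.96 ± 0.22 (FDR = 0.0109) and with E07 fell by 0.92 ± 0.19 (FDR = 0.00114). The receptors Bnip3 (0.00 and 0.12) and Fundc1 (-0.15 and -0.04) were not called.

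In the early steps single members moved while their partners did not pass the test. Becn1 (Beclin 1, ENSMUSG00000035086, chr11:101176769-101193122) ran from 11.52 to 13.26 (median 12.29) in CTRL, 12.59 to 14.23 (median 13.20) in HOCl and 11.92 to 12.97 (median 12.26) in E07 mice. It rose by 0.95 ± 0.18 (FDR = 0.00434) and with E07 fell by 0.96 ± 0.15 (FDR = 0.000144). Pik3c3, the lipid kinase that Beclin 1 binds, had fold changes of 0.06 and 0.05, and Pik3r4, Atg14 and Uvrag of the same complexes lay between -0.15 and 0.15 in both comparisons. Wipi1, which binds the lipid that the kinase makes, ran from 7.43 to 8.73 (median 8.12) in CTRL, 7.88 to 10.41 (median 8.93) in HOCl and 7.56 to 8.64 (median 8.07) in E07. It rose by 0.83 ± 0.20 (FDR = 0.0114) and with E07 fell by 0.88 ± 0.18 (FDR = 0.0015). Its relative Wipi2 had -0.03 and 0.12, and Atg9a, the lipid scramblase of the seed vesicles, 0.25 and -0.19. Ulk1, the initiating kinase, had 0.18 (FDR = 0.526) and -0.29 (FDR = 0.0611), and its partner Rb1cc1 (FIP200) 0.17 and -0.13.

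Atg4a (ENSMUSG00000079418, chrX:139854582-139947293), a protease that prepares ATG8 proteins for conjugation, had the largest fold change of all members. It ran from 8.46 to 10.78 (median 9.42) in CTRL, 9.14 to 12.13 (median 11.05) in HOCl and 8.49 to 10.23 (median 9.15) in E07 mice. It rose by 1.36 ± 0.28 (2.58-fold, FDR = 0.00545) and with E07 fell by 1.32 ± 0.26 (2.49-fold, FDR = 0.00103). Its paralogs Atg4b, Atg4c and Atg4d lay between -0.17 and 0.15 and were not called. Atg12, the ubiquitin-like protein joined to ATG5, ran from 9.52 to 10.91 (median 9.89) in CTRL, 9.93 to 11.48 (median 10.49) in HOCl and 9.72 to 10.34 (median 9.99) in E07. It rose by 0.53 ± 0.16 (FDR = 0.0447) and with E07 fell by 0.51 ± 0.13 (FDR = 0.00972). Its HOCl call was lost in 17 of 22 fits that left out 1 mouse, with FDR up to 0.0875. Atg5 itself had -0.19 (FDR = 0.214) and 0.16 (FDR = 0.193), and Atg7, the activating enzyme, 0.28 (FDR = 0.197) and -0.32 (FDR = 0.0238, under the fold threshold).

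The transcription factors Foxo3 and Tfe3 were past the FDR with E07 (-0.37 and -0.27) and under the fold threshold. Foxo3 passed both in 11 of 23 fits that left out 1 mouse, with FDR from 0.0178 to 0.0796. Tfeb, which drives lysosome and autophagy genes, had -0.11 in HOCl and 0.07 with E07. Lamp2, the lysosomal membrane protein of chaperone-mediated and fusion steps, ran from 10.61 to 11.63 (median 11.09) in CTRL, 11.06 to 11.87 (median 11.34) in HOCl and 10.57 to 11.28 (median 10.94) in E07. It was 0.24 ± 0.12 higher in HOCl (FDR = 0.264) and with E07 fell by 0.40 ± 0.09 (FDR = 0.00373). Its fold change of 1.32 lay close to the threshold of 1.3, and it fell under it without HOCl mouse 6, HOCl mouse 9, E07 mouse 4 or E07 mouse 9. Lamp1 had 0.15 (FDR = 0.435) and -0.25 (FDR = 0.0605).

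**Figure D3:**
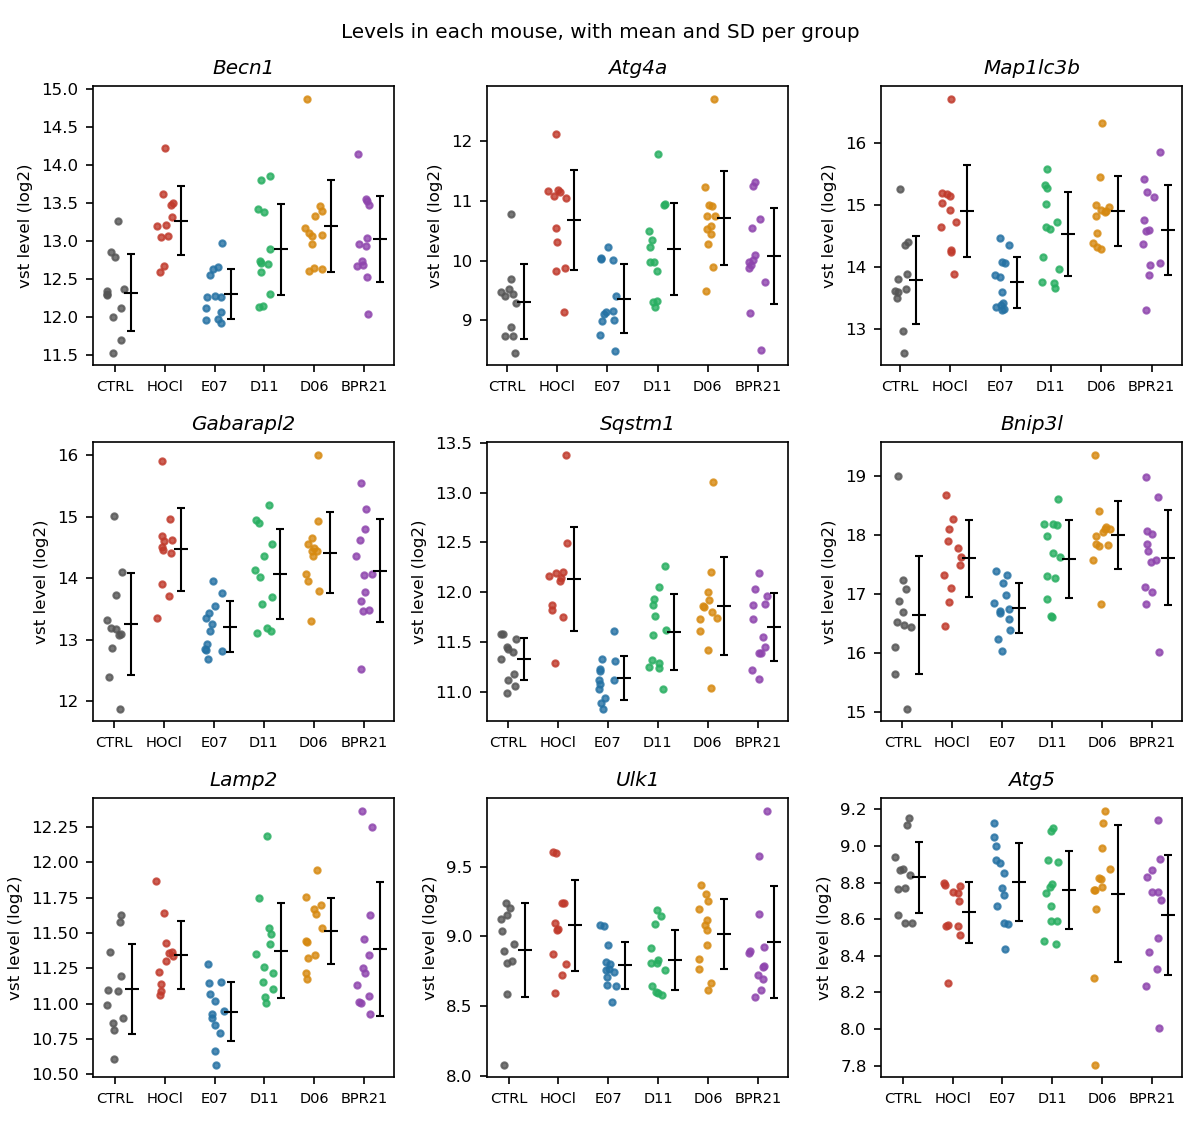
vst level (log2) of 9 members in each of 70 mice by group; points are mice, and the black bar and whiskers are the group mean and SD. The number of HOCl mice above every CTRL mouse is 5 of 11 for Becn1, 6 for Atg4a, 1 for Map1lc3b, 1 for Gabarapl2 and 10 for Sqstm1, and above every E07 mouse 9, 8, 8, 8 and 10, while the CTRL mouse at 19.00 for Bnip3l is number 12.

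Erythroid transcripts formed a large part of this blood RNA, and their share was not the same in every group. The 31 measured erythroid genes of 32 listed (membrane skeleton, heme synthesis and erythroid factors, no autophagy member and no globin) took a mean of 7.02% of counts in CTRL (range 3.27 to 10.2), 11.6% in HOCl (7.87 to 17.6), 6.58% in E07 (4.61 to 9.42), 8.49% in D11 (5.03 to 12.4), 9.81% in D06 (7.31 to 17.7) and 8.78% in BPR21 mice (6.15 to 11.9), over all 71 mice with counts. The share was higher in HOCl than CTRL (two-sided permutation test over mice, p = 8e-05, adjusted over 8 comparisons p = 0.00032) and lower in E07 than HOCl (p = 1e-05, the smallest that 100000 resamples can give, adjusted p = 8e-05). Of the 31 genes, 26 were called higher in HOCl (median log2 fold change 1.23) and 27 lower with E07 (median -1.25). None of the 31 had a median count of 0. On the vst scale platelet markers moved the same way, with 5 of 8 called higher in HOCl and 8 of 8 lower with E07, and 7 of 8 B cell markers were called higher with E07. Of 12 neutrophil markers 3 were called higher in HOCl and 2 lower with E07, of 9 monocyte markers 0 and 2 lower, and of 4 eosinophil markers 0 and 2 higher. None of 8 T cell and 6 NK cell markers was called in either. Shares of counts read differently from these vst calls. The platelet markers took a mean of 0.401% of counts in CTRL, 0.441% in HOCl and 0.417% in E07 mice. In the same order T cell markers took 0.173%, 0.113% and 0.164%, and NK cell markers 0.03954%, 0.02266% and 0.03675%. The differences in these shares were not tested. The part of these cell types in the members' changes was not tested beyond the erythroid values given next. In bulk blood, fewer cells of a type and less RNA per cell cannot be told apart.

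The members that moved were mostly those whose level followed the erythroid share from mouse to mouse inside the groups. Over 70 mice, after subtracting each group's mean, the correlation of the vst level with the log2 erythroid share was r = 0.88 for Map1lc3b (Spearman's rho = 0.908, permutation p = 1e-05 for each, adjusted over 47 members p = 3.615e-05 for each). It stayed at 0.88 without the 2 mice farthest from the median and ran from 0.87 to 0.96 inside single groups. The r of the 15 members called in either comparison had a median of 0.80, and 13 of them were above 0.5. The r of the other 32 members had a median of 0.06, with 1 above 0.5 (Foxo3, 0.59), beside 688 of all 10508 genes. Gabarapl1 (r = 0.27, permutation p adjusted 0.0593; rho = 0.224, permutation p adjusted 0.128) was called with a low r. Lamp2, called with E07, had r = 0.18 (permutation p adjusted 0.26) and rho = 0.111 (permutation p adjusted 0.5). The vst values and the share come from the same libraries. With levels scaled to the library total, the median r was 0.68 for the 15 members and -0.53 for the other 32 (from -0.75 to -0.17), and 9 members in place of 14 had an r above 0.5, with Map1lc3b at 0.88, Sqstm1 at 0.21 and Nbr1 at -0.38.

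**Figure D4:**
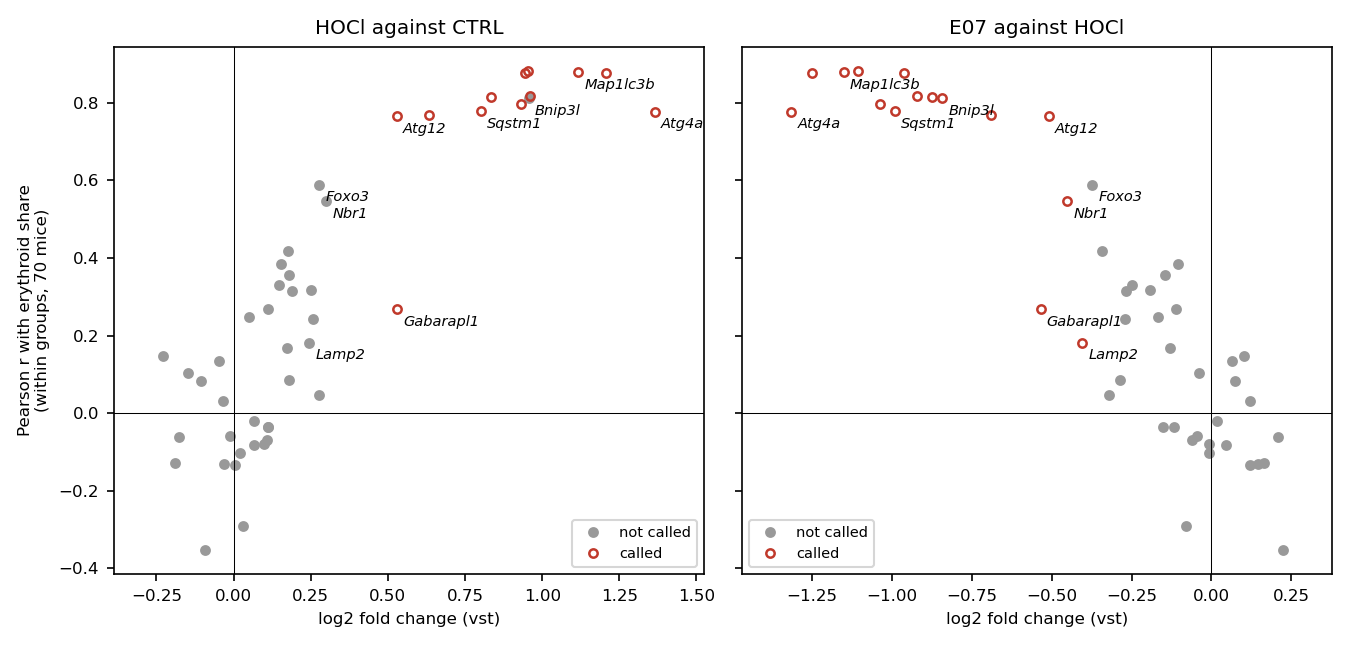
Pearson's r of each member's vst level with the log2 erythroid share of counts (vertical axis, 70 mice, deviations from group means) against its log2 fold change in HOCl against CTRL (left) and E07 against HOCl (right); open red circles are called members and grey points are not. The called members cluster at r near 0.8 apart from Gabarapl1 at 0.27 and, on the right, Lamp2 at 0.18 and Nbr1 at 0.55.

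With the mean erythroid level added to the model, limma called 0 of 47 members in HOCl against CTRL, beside 0.00952% of all genes, and 0 in E07 against HOCl, beside 0% of all genes. At an unadjusted p under 0.05, a looser cut-off to which these shares do not apply, there were 6 and 5. The share of all genes at that cut-off is not given here, so these counts are not read as a remaining difference in the members. Map1lc3b then had -0.18 and 0.03, Gabarapl2 -0.12 and -0.16, and Becn1 0.10 and -0.19. Gabarapl1 had 0.41 (FDR = 0.323) and -0.49 (FDR = 0.249), beside 0.53 and -0.53 without the erythroid level, and Lamp2 with E07 had -0.38 (FDR = 0.287) beside -0.40, so these folds changed little while their calls were lost. The erythroid level differs between the same groups, so the group and the erythroid level cannot be fully told apart in this model. With counts scaled to the library total instead, the median of all genes shifted by -0.47 in HOCl against CTRL and by 0.49 in E07 against HOCl. On that scale 19 members were called in HOCl against CTRL (8 higher and 11 lower), beside 52.0% of all genes, and 23 in E07 against HOCl (14 higher and 9 lower), beside 65.5%. Relative to those shifts Map1lc3b had 1.11 and -1.14, and Sqstm1 0.81 and -1.02. Every called member kept its sign without subtracting the shift, except Lamp2 with E07 (0.08).

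The other 3 treatments were each compared with HOCl, the untreated disease group. In D11 against HOCl 0 of 47 members were called by limma, beside 0.0571% of all genes. In D06 the count was 0 (beside 0.133% of all genes), and in BPR21 0 (beside 0.638%). At an unadjusted limma p under 0.05 there were 8 members in D11, 5 in D06 and 4 in BPR21. That is a looser cut-off, to which these shares of all genes do not apply. The share of all genes at that cut-off is not given here, so these counts are not read as a result about the members. edgeR called 0 in each, and DESeq2 called Sqstm1 lower in D11, Atg7 lower in D06 and none in BPR21. The shares of all genes above are those of limma and give no background for these DESeq2 calls. Sqstm1 ran from 11.02 to 12.26 (median 11.59) in D11, 11.04 to 13.11 (median 11.82) in D06 and 11.12 to 12.19 (median 11.64) in BPR21 mice, between the HOCl and E07 medians in each. Its limma difference from HOCl was -0.53 ± 0.17 (FDR = 0.175) with D11 and -0.48 ± 0.17 (FDR = 0.18) with BPR21. The erythroid share was lower than in HOCl with D11 (two-sided permutation test, adjusted p = 0.0105) and BPR21 (adjusted p = 0.00878), and with D06 the permutation p was 0.123. With the erythroid sum divided by size factors, the differences with D11 (permutation, adjusted p = 0.156) and BPR21 (adjusted p = 0.159) no longer passed.

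Bnip3l, the mitophagy receptor, had its highest median in D06 mice. It ran from 16.83 to 19.37 (median 18.02) in D06, 16.61 to 18.62 (median 17.66) in D11 and 16.02 to 18.98 (median 17.66) in BPR21 mice, none of which lay under HOCl by its median of 17.64. The difference from HOCl was 0.40 ± 0.23 (FDR = 0.472) with D06, -0.01 ± 0.24 with D11 and 0.01 ± 0.28 with BPR21. Bnip3l took a mean of 70.4% of the members' counts in D06, 68.7% in D11, 68.0% in BPR21, 64.9% in E07, 63.7% in HOCl and 61.5% in CTRL. With the erythroid level in the model it was the single member called in D06 (0.45, FDR = 0.0262) beside 0.409% of all genes, and in BPR21 (0.47, FDR = 0.0226), beside 2.22%, higher in both, and in D11 it had 0.46 with FDR = 0.0602.

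Set directly against the other treatments, E07 had lower levels of most of the same members. In E07 against D11 12 of 47 were called, all lower, beside 4.57% of all genes. In E07 against D06 14 were called, all lower, beside 9.76%, and in E07 against BPR21 12 were called, all lower, beside 7.26%. Of the members called in any of the 3, 11 of 14 were called in each: Becn1, Wipi1, Map1lc3b, Gabarap, Gabarapl1, Gabarapl2, Sqstm1, Optn, Bnip3l, Pink1 and Lamp2. These comparisons share the E07 mice. The count against D11 was the least steady: 5 without E07 mouse 9, 6 without D11 mouse 10, 7 without E07 mouse 4, 7, 8 or 10 or D11 mouse 3, 5 or 12, and 0 when all 6 groups entered a single fit, and against BPR21 it was 7 without BPR21 mouse 11. Shares of all genes in these refits are not given here, so whether the drops are particular to the members was not tested. The erythroid share was lower in E07 than in D06 (two-sided permutation test, adjusted p = 0.00125) and BPR21 (adjusted p = 0.00973), and the p against D11 was 0.0477 (permutation, adjusted p = 0.0545). With the erythroid level in the model 0 members and 0% of all genes were called in each of the 3 by limma. At an unadjusted p under 0.05, a looser cut-off to which that share does not apply, there were 7, 6 and 3 members. Without the share of all genes at that cut-off, these counts too are not read as a remaining difference. With counts scaled to the library total, the median of all genes shifted by 0.39 against D11, 0.59 against D06 and 0.41 against BPR21, and the members called were 13 higher and 5 lower (beside 44.4% of all genes), 22 higher and 8 lower (beside 74.2%), and 13 higher and 4 lower (beside 45.8%).

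By group mean, HOCl was the highest of the 6 groups for 18 members and D06 for 15, and E07 was the lowest for 21. For Map1lc3b the medians of HOCl (14.93), D06 (14.89), D11 (14.62) and BPR21 (14.59) lay closer to each other than the spread inside each group, above E07 (13.72) and CTRL (13.65). The medians of Pik3c3 lay between 8.35 in D06 and 8.60 in CTRL.

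Beyond the 47, 65 further genes of the pathway were measured of 69 listed: nutrient sensors, regulators of nucleation, fusion and lysosomal genes, and other mitophagy regulators. In HOCl against CTRL 5 were called higher and 0 lower (7.69%, beside 4.96% of all genes). The largest was Bcl2l1 (1.61 ± 0.28, FDR = 0.00354), which encodes BCL-XL, a binding partner of Beclin 1, followed by Ctsb (cathepsin B, 1.18 ± 0.23) and Sh3glb1 (0.97 ± 0.26). With E07 against HOCl 7 were called lower and 0 higher (10.8%, beside 7.89%), led by Bcl2l1 (-1.70 ± 0.26, FDR = 0.000117), Ctsb (-1.48 ± 0.22) and Sh3glb1 (-1.08 ± 0.19). The median log2 fold change of the 65 was 0.00 and 0.01. None of 14 genes of fusion with lysosomes was called in either. Against HOCl, D11 and D06 had 0 called and BPR21 had 1, Trp53inp1 (0.38, FDR = 0.0438). E07 had 2 lower against D11 (3.08%, beside 4.57%), 5 lower and 2 higher against D06 (10.8%, beside 9.76%), and 6 lower and 1 higher against BPR21 (10.8%, beside 7.26%), with Fundc2 lower in each (-0.82, -1.23 and -0.76).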

How the data were processed

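Whole-blood RNA of 71 mice was sequenced by the authors from stranded poly(A) libraries after globin depletion. Reads were trimmed with cutadapt, aligned with STAR to mm39 and counted per gene with featureCounts, per the labels and the study's methods. The authors deposited raw counts (55416 genes, 71 mice) and log2-scale vst values made with DESeq2 1.30.0 (10508 genes, 70 mice, protein-coding and expressed). The study's limma test was used on the vst values, with 2 groups per fit (limma 3.58.1, R 4.3.3). Counts were tested with edgeR 4.0.16 and DESeq2 1.42.0 as alternatives (at least 10 counts in 11 mice). RPKM used the GENCODE exon length on GRCm39. P-values for the erythroid share came from 100000 resamples, and correlations used deviations from group means. The design planned a count test for members absent from the vst table; there were 0. The fit was tested on simulated data. Members and gene lists were chosen with earlier results of these data known. All members could be named: those called are given with values, and for each role a fixed pair whatever its values; of other pathway genes at most the 3 largest per comparison. Groups were caged separately, per the study's methods, and no batch is given in the sources used here. The p-values of group comparisons set a difference between groups against the spread between mice within them. Such a difference includes any effect of the cage. Alternatives that left out single mice outside HOCl, or HOCl mouse 8 from the counts, were added after seeing the data.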

Additional observations from a re-analysis of the deposited data

Results flagged for a closer look

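Because E07, D11, D06 and BPR21 mice all received HOCl, a difference between E07 and another treatment is a direct test that their effects against the same HOCl mice differ. The members below passed that test (limma, FDR at most 0.05 and fold change at least 1.3), all lower with E07, and are given as log2 fold changes on the vst scale. The comparisons share the E07 mice. Against D11 the 12 calls were not steady: a single fit over 6 groups called 0, and leaving out 1 mouse gave as few as 5. Shares of all genes in those fits are not given here. Scaling to the library total gave 13 higher and 5 lower against D11, beside 44.4% of all genes. Scaled that way, the calls were 22 higher and 8 lower against D06 (beside 74.2%), and 13 higher and 4 lower against BPR21 (beside 45.8%).

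Among the ATG8 genes, Map1lc3b had -0.78 against D11, -1.15 against D06 and -0.85 against BPR21. Gabarapl2 had -0.85, -1.20 and -0.91 in the same order, Gabarap -0.48, -0.73 and -0.54, and Gabarapl1 -0.54, -0.73 and -0.61. The difference was largest against D06 for each of these 4 genes. Among the cargo receptors, Sqstm1 had -0.46, -0.72 and -0.51 and Optn -0.60, -0.93 and -0.63, while Tax1bp1 was called against D06 (-0.97) and BPR21 (-0.54). Among the mitophagy genes, Bnip3l had -0.84, -1.24 and -0.86 and Pink1 -0.68, -0.99 and -0.74. In the early steps, Becn1 had -0.59, -0.89 and -0.72 and Wipi1 -0.64, -0.89 and -0.60. Atg4a was called against D11 (-0.84) and D06 (-1.35), Atg12 against D06 (-0.61), and Lamp2 in each comparison (-0.43, -0.57 and -0.44).

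The mean erythroid share of counts was 6.58% with E07 beside 8.49% with D11, 9.81% with D06 and 8.78% with BPR21. None of these members was called in any of the 3 comparisons with the erythroid level in the model.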

How the results depend on the processing

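Leaving out each mouse in turn gave 10 to 13 members called in HOCl against CTRL, 14 to 16 in E07 against HOCl, 5 to 13 in E07 against D11, 14 to 16 against D06 and 7 to 13 against BPR21, and 0 in D11, D06 and BPR21 against HOCl. The 5 came without E07 mouse 9 and the 7 without BPR21 mouse 11. The shares of all genes called in these fits are not given here, so a lower count is not read as particular to the members. Among the members named in the first pair of comparisons, calls were lost without some single mouse for Atg12, Gabarap and, with E07, Lamp2, and Pik3c3 in HOCl against CTRL ranged from -0.017 without CTRL mouse 12 to 0.093 without CTRL mouse 7.

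edgeR with and without a filter on low counts, centring each mouse on its median, the FDR alone, and limma with trend and robust variances kept every count of called members within 1.5 times. DESeq2 differed in D11 and D06 against HOCl, with 1 member in place of 0 in each. A single fit over 6 groups called 0 in E07 against D11, and the share of all genes in that fit is not given here. Scaling to the library total called 19 members in HOCl against CTRL (beside 52.0% of all genes), 23 in E07 against HOCl (beside 65.5%) and 30 in E07 against D06 (beside 74.2%). It left 9 members in place of 14 with r above 0.5. With the erythroid level in the model the count was 0 in each comparison with a call, and 1 in D06 and in BPR21 against HOCl. The cause of these shifts was not tested.

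Whether mouse numbers pair the animals is not stated in the sources used here, and it was not tested. Same-numbered mice correlated from -0.36 to 0.30 in HOCl against CTRL, with a mean of 0.048 beside -0.0014 for other pairs. In E07 against D06 these means were 0.076 and -0.0051. In every comparison the lowest r of same-numbered mice was negative and their mean lay above that of other pairs, so a weak pairing is not excluded. Under a replicate block on that number 1 member was called in HOCl against CTRL, 15 in E07 against HOCl, 13 in E07 against D11 and 13 against BPR21, and 14 against D06. The shares of all genes called under that block are not given here. Whether the fall in HOCl against CTRL is particular to the members was not tested. In HOCl against CTRL, 1 of 11 mice correlated best with its own number, and in E07 against HOCl 3 of 12.

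Divided by size factors, the erythroid sum in D11 was 0.694 times that in HOCl (permutation, adjusted p = 0.156) and in BPR21 0.719 times (adjusted p = 0.159), no longer past 0.05, and in E07 0.554 times that in D11 (permutation, adjusted p = 0.0203), now past it.

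Under library-total scaling the sign turned for 24 of 47 members in HOCl against CTRL and 22 in E07 against HOCl, and with the erythroid level in the model for 18 and 20. Of the called members and the fixed pairs of each role, those that turned under library-total scaling in HOCl against CTRL were Ulk1 (-0.24), Rb1cc1 (-0.27), Pik3c3 (-0.36), Atg9a (-0.071), Atg7 (-0.088), Foxo3 (-0.17), Lamp1 (-0.33) and Lamp2 (-0.23), none of them called before. In E07 against HOCl they were Ulk1 (0.13), Rb1cc1 (0.34), Atg9a (0.18), Atg7 (0.052), Foxo3 (0.078), Lamp1 (0.25) and Lamp2 (0.078). With the erythroid level in the model, signs of this subset turned in HOCl against CTRL for Rb1cc1 (-0.046), Wipi1 (-0.085), Atg12 (-0.18), Map1lc3b (-0.18), Gabarap (-0.22), Gabarapl2 (-0.12), Optn (-0.018), Tax1bp1 (-0.007), Bnip3l (-0.45), Pink1 (-0.11), Foxo3 (-0.19) and Tfeb (0.046). In E07 against HOCl they turned for Rb1cc1 (0.096), Atg9a (0.12), Wipi1 (0.064), Atg4a (0.037), Atg12 (0.15), Map1lc3b (0.025), Gabarap (0.084), Bnip3l (0.17), Pink1 (0.079), Foxo3 (0.18) and Tfeb (-0.14).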
